A study of Mus musculus with 9 samples.

Results

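The RNA levels of 10 genes that write, erase or guard DNA methylation were compared between a mutator line and a wild-type (WT) line of cultured mouse embryonic fibroblasts, connective-tissue cells taken from embryos and grown in a dish. The genes are Dnmt1, Dnmt3a, Dnmt3b, Uhrf1, Tet1, Tet2, Tet3, Zfp57, Trim28 and Tdg. They were chosen by name for their roles and found by symbol. All 10 were present among the 29915 rows of the table, and all 10 passed the filter on low counts that left 13345 genes. The mutator group has 5 libraries, from wells of a line whose genotype is labelled only as mutator. The WT group has 4 libraries, from wells of a line labelled wild type. No cells were treated, and both lines were harvested 48 h after seeding. Mutator mice are usually those carrying a proofreading-deficient mitochondrial DNA polymerase (Polg), but no allele is named in the labels. The study's stated interest was proteasome subunits, so the genes described here lie outside its own question. The wells are technical replicates of 1 line per genotype, so each p-value measures the spread between wells, and genotype cannot be told apart from any other difference between the lines.

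DNA methylation in mammals is the addition of a methyl group to cytosine, mostly where cytosine is followed by guanine (CG). DNMT3A and DNMT3B place new methyl groups, and DNMT1, brought to newly copied DNA by UHRF1, restores them after replication. The TET enzymes oxidise methylated cytosine and TDG removes the oxidised base, after which base excision repair fills in an unmethylated cytosine. ZFP57 binds the methylated copy of imprinting control regions and recruits TRIM28, a scaffold for silencing enzymes, so that imprints outlast the wave of demethylation in the early embryo.

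Poly(A)-selected libraries held 32045662 to 49511365 counts in mutator and 26341230 to 36238653 counts in WT. The lines differed in a large share of the genes tested: 40.7% were higher and 39.2% were lower in mutator at an adjusted p under 0.05 (edgeR quasi-likelihood test with Benjamini-Hochberg adjustment over 13345 genes), which is 79.9% in all. The median log2 fold change (mutator over WT) of all genes was 0.01. Genes of some chromosomes were shifted together, so the fold change of each of the 10 genes is also given relative to the median of its chromosome. Chromosome 3 (-0.73) and chromosome 9 (0.40) were the members' chromosomes shifted most. The median is taken as a fixed value, so p-values on that scale leave out its error and the spread of genes around it. Of 13 fibroblast markers, 10 passed the filter; Lum and Dcn had 0 and 5 counts in all mutator libraries together, against 1 and 9 counts in WT libraries, and Thy1 had 20 counts in mutator and 0 in WT. The summed level of the 13 markers was 16340 to 17410 CPM (counts scaled to library size) in mutator and 8886 to 9302 CPM in WT. Col1a2, a fibrillar collagen chain, was 12.6-fold higher in mutator, Col3a1, another such chain, 10.2-fold higher and Col1a1, the partner chain of Col1a2, 3.38-fold higher. Of the 10 tested markers, 7 were higher and 2 lower: Pdgfra, a growth factor receptor, at -0.48 and Twist1, a mesenchymal transcription factor, at -0.21 on the log2 scale. S100a4 did not pass (0.00, edgeR adjusted p = 0.957). In such bulk samples, fewer cells of a type and less RNA per cell cannot be told apart.

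Of the 10 genes, 6 were higher and 3 lower in mutator at that threshold, against a background of 79.9% of all genes, so a count of 9 in 10 is close to the background. In 7 of the 10 the libraries of the lines did not overlap, against 71.9% of all genes tested. A change of at least 2-fold was present in 1 of the 10, Tet1, against 17.8% of all genes. The median of the 10 absolute log2 fold changes was 0.35, and that of all genes was also 0.35.

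The members' promoters differ in CG content, and 4 upstream windows are shown: Tet1 has the largest rise, Tet2 the most CG pairs, Uhrf1 letters of a cell cycle motif, and Zfp57 the CG count of a median promoter. They are from RefSeq (GRCm38.p6), 5′ to 3′ on the gene's strand, end at the base before an annotated start, and have each CG pair in capitals; which start these cells use cannot be read from gene counts. The Tet1 window is chr10:62887325-62887414 (minus strand), the Tet2 window chr3:133544391-133544640 (minus strand), the Uhrf1 window chr17:56304063-56304312 (plus strand) and the Zfp57 window chr17:37000913-37001162 (plus strand). The printed Tet1, Tet2 and Uhrf1 windows lie inside the positions given below for these genes, before an annotated start within the gene. The Zfp57 window lies just outside its gene.
Tet1: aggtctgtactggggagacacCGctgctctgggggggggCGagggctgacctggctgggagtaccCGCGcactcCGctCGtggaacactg
Tet2: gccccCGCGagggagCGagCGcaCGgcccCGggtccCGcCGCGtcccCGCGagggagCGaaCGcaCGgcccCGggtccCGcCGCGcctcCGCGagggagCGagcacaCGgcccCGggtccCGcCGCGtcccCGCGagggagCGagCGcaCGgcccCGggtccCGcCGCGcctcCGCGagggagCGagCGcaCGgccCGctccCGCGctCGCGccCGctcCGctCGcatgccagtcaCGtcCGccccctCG
Uhrf1: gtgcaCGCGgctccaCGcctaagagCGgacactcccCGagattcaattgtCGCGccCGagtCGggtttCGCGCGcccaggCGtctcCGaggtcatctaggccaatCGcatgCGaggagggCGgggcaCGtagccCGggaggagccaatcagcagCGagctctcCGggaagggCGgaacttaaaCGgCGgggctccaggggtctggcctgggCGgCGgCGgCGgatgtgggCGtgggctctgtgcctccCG
Zfp57: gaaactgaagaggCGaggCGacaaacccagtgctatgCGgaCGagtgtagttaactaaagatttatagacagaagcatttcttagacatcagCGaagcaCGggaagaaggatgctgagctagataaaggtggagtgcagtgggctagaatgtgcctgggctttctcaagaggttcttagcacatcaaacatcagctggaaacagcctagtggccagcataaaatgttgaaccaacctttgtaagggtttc

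The printed Tet1 window of 90 bases holds 6 CG pairs, and its full window of 250 bases holds 15, a count that 27.3% of the 32851 promoter windows of that length reach. The Tet2 window holds 51 CG pairs, which 0.067% of windows reach, and the printed Uhrf1 window holds 30, which 5.94% reach. The other Uhrf1 window holds 10, which 37.8% reach. The printed Zfp57 window holds 6, which equals the median of all windows, and the other Zfp57 windows hold 3 and 7. All 10 genes had a window in the table, with 17 windows in all. The letters TTTCGCGC or TTTGGCGC, forms bound by the E2F factors of the cell cycle, were searched on both strands; they occur in 0.655% of all windows. One of the 3 Dnmt1 windows and the printed Uhrf1 window hold TTTCGCGC, beginning 219 bases (opposite strand) and 185 bases before the start. The other Uhrf1 window holds neither form. Such a match is a description of letters and was not tested as a binding site.

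For maintenance methylation, the enzyme was higher and its recruiter lower in mutator, although the enzyme changed sides relative to its chromosome. Dnmt1 (GRCm38 chromosome 9, 20907206 to 20959888) had 457, 468, 450.0, 469 and 456 CPM in mutator libraries 1 to 5, against 368, 359, 384 and 362 CPM in WT libraries 1 to 4. Every mutator library lay above every WT library. The log2 fold change was 0.32 ± 0.024 (SE; edgeR adjusted p = 6.66e-10), a 1.25-fold rise. Relative to its chromosome median, however, Dnmt1 was at -0.08 (edgeR adjusted p = 0.00607), the opposite direction, since that scale subtracts a median of 0.40; the 61 tested genes within 2 Mb of it had a median of 0.51.

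Uhrf1 (chromosome 17, 56303337 to 56323486), whose product reads hemimethylated DNA at the replication fork, had 235, 239, 237, 249.9 and 241 CPM in mutator, against 339, 327, 342 and 344 CPM in WT. All 5 mutator libraries were below all 4 WT libraries. It fell 1.41-fold, with a log2 fold change of -0.49 ± 0.024 (edgeR adjusted p = 1.17e-12). Relative to its chromosome median it was still lower (-0.23, edgeR adjusted p = 6.75e-08). The 43 tested genes within 2 Mb of Uhrf1 had a median of -0.39. The log2 ratio of Uhrf1 to Dnmt1 counts within a library needs no scaling between libraries. It still carries the chromosome shifts, with medians of -0.26 for chromosome 17 and 0.40 for chromosome 9. The ratio was -0.94 ± 0.025 in mutator (SD, n = 5) and -0.12 ± 0.040 in WT (SD, n = 4). The difference of -0.81 was present in each mutator library against each WT library (two-sided exact permutation p = 0.0159, the smallest that 5 against 4 libraries allow; 0.0181 adjusted over 8 ratios).

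Both de novo writers were higher in mutator by small amounts, Dnmt3a except with the GC and length trend removed and Dnmt3b except relative to its chromosome. Dnmt3a (chromosome 12, 3801559 to 3914443) had 37.0, 37.9, 37.1, 38.0 and 34.8 CPM in mutator, against 32.4, 33.9, 33.1 and 33.7 CPM in WT. The libraries did not overlap, but mutator library 5 was within 1 CPM of the highest WT library. The log2 fold change was 0.15 ± 0.034 (edgeR adjusted p = 0.000524) and 0.14 relative to its chromosome median; with the trend of GC content and length over genes removed it was -0.11 (edgeR adjusted p = 0.00821), so its direction depended on that step. Gene counts do not separate the long and short DNMT3A isoforms. The antisense genes Dnmt3aos and Dnmt3bos overlap Dnmt3a and Dnmt3b, and a processed copy, Dnmt3a-ps1, and the near-copy Dnmt3c exist, so reads of these places may be missing, shared or split.

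Dnmt3b (chromosome 2, 153649411 to 153687730) was among the least abundant of the group, with 3.76, 3.72, 3.84, 3.49 and 3.77 CPM in mutator, against 2.75, 2.81, 3.01 and 3.57 CPM in WT. WT library 4 lay above the lowest mutator library, so the groups overlapped. Its log2 fold change was 0.30 ± 0.090 (edgeR adjusted p = 0.00590) and -0.01 relative to its chromosome median (edgeR adjusted p = 0.911). The Dnmt3a to Dnmt3b log2 ratio was 3.31 ± 0.089 in mutator (SD, n = 5) and 3.46 ± 0.16 in WT (SD, n = 4), a difference of -0.15 that did not pass (two-sided exact permutation p = 0.127). It was decided by WT library 4: without it the difference was -0.22 (exact permutation p = 0.0357 after adjustment). Dnmt3a over Dnmt1 was lower in mutator by 0.17 on the log2 scale (two-sided exact permutation p = 0.0159, 0.0181 adjusted). Relative to chromosome medians the order turned, with Dnmt3a at 0.14 and Dnmt1 at -0.08.

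**Figure D1:**
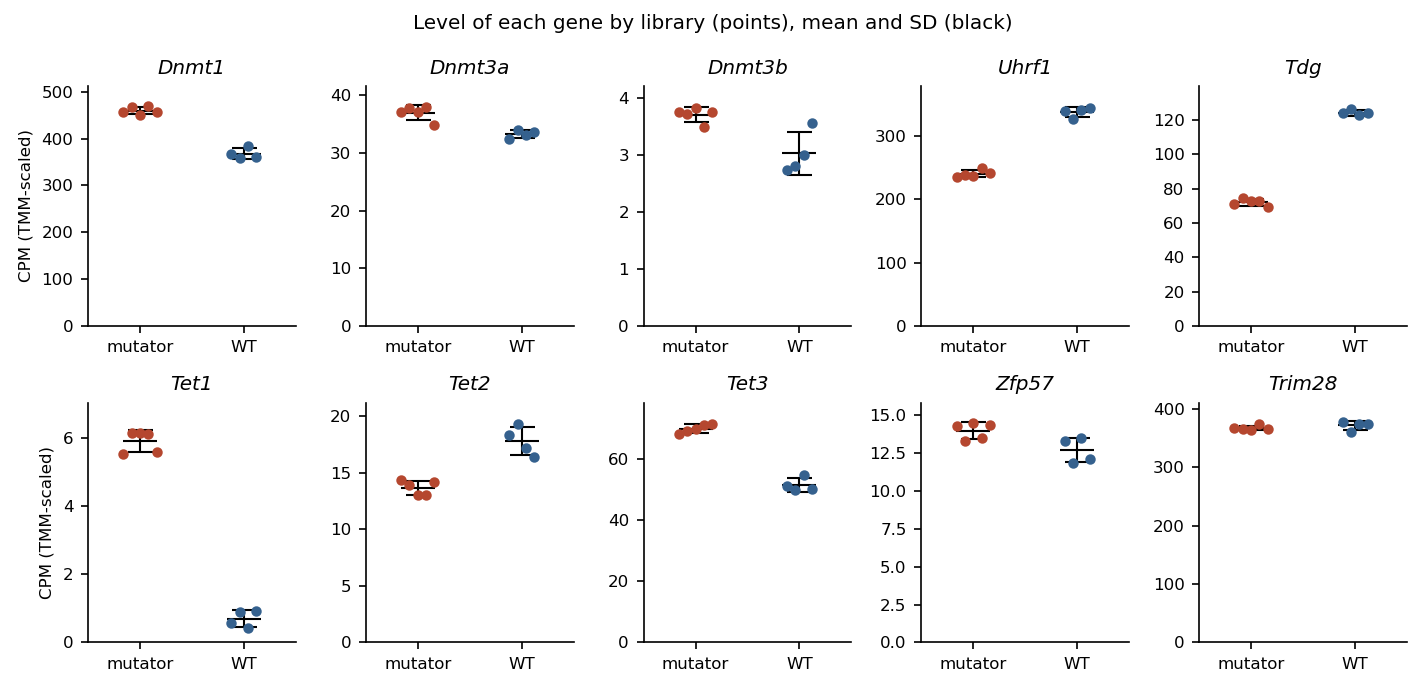
Level of each of the 10 genes in CPM (vertical axis, from 0) in the 5 mutator libraries (left, red) and the 4 WT libraries (right, blue); points are libraries, and black marks give the mean and SD. Tet1 lies between 5.54 and 6.16 CPM in mutator and between 0.419 and 0.919 CPM in WT, whereas the libraries of Trim28, Zfp57 and Dnmt3b overlap between the lines.

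Tet1 showed the widest difference of the 10 and was the 424th highest fold change of 13345 genes. Tet1 (chromosome 10, 62804570 to 62887469) encodes a TET enzyme with a CXXC domain and is best known from embryonic stem cells. It had 240, 271, 252, 305 and 181 counts in mutator libraries 1 to 5, against 21, 28, 11 and 26 counts in WT libraries 1 to 4. In CPM that was 5.54, 6.15, 6.16, 6.12 and 5.59 in mutator, against 0.583, 0.884, 0.419 and 0.919 in WT. Every mutator library was far above every WT library, and the WT libraries varied more among themselves relative to their level. The log2 fold change was 3.07 ± 0.14 (edgeR adjusted p = 3.52e-13), an 8.39-fold rise. Relative to the chromosome median it was 3.28, and the 30 tested genes within 2 Mb of Tet1 had a median of -0.31, a shift in the other direction. Leaving out any 1 library gave a log2 fold change between 2.91 and 3.2.

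Tet2, whose protein lacks a CXXC domain, and Tet3, some forms of which carry one, moved apart as fitted. Relative to chromosome medians both were higher in mutator, Tet2 at 0.35 and Tet3 at 0.31. Tet2 (chromosome 3, 133463677 to 133545136) had 14.3, 13.9, 13.0, 13.1 and 14.2 CPM in mutator, against 18.3, 19.3, 17.2 and 16.4 CPM in WT. All mutator libraries were below all WT libraries, with a log2 fold change of -0.39 ± 0.053 (edgeR adjusted p = 2.89e-06). Relative to chromosome 3 the sign turned, to 0.35 (edgeR adjusted p = 1.09e-05): Tet2 fell less than the median gene of its chromosome, and the 16 tested genes within 2 Mb had a median of -0.56.

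Tet3 (chromosome 6, 83362373 to 83457208) had 68.1, 69.1, 69.7, 71.3 and 71.6 CPM in mutator, against 51.1, 49.7, 54.8 and 50.2 CPM in WT. The groups did not overlap, and the log2 fold change was 0.44 ± 0.033 (edgeR adjusted p = 5.37e-10), or 0.31 relative to its chromosome median. With the GC and length trend removed it was 0.12 (edgeR adjusted p = 0.00232). The 42 tested genes within 2 Mb of Tet3 had a median of 0.33. A non-coding gene on the opposite strand, B230319C09Rik, lies within Tet3, and the strand setting of the counting is not known.

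Scaled for transcript length, Tet3 was the main TET transcript in both lines. It took 77.1 ± 0.71% of the summed length-scaled TET counts in mutator (SD, n = 5) and 70.3 ± 2.05% in WT (SD, n = 4). Tet2 took 17.9 ± 0.85% in mutator and 28.9 ± 1.93% in WT, and Tet1 took 4.95 ± 0.29% in mutator and 0.732 ± 0.27% in WT. Thus an 8.39-fold rise of Tet1 still left it the smallest of the 3. Count ratios between genes of different chromosomes also carry the chromosome shifts. The medians were 0.13 for chromosome 6 (Tet3), -0.73 for chromosome 3 (Tet2) and -0.21 for chromosome 10 (Tet1). The Tet3 to Tet2 log2 count ratio was 2.35 ± 0.081 in mutator and 1.53 ± 0.14 in WT, and the Tet2 to Tet1 ratio was 1.21 ± 0.14 in mutator and 4.70 ± 0.52 in WT (SD, n = 5 and 4; two-sided exact permutation p = 0.0159 for each, 0.0181 adjusted).

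**Figure D2:**
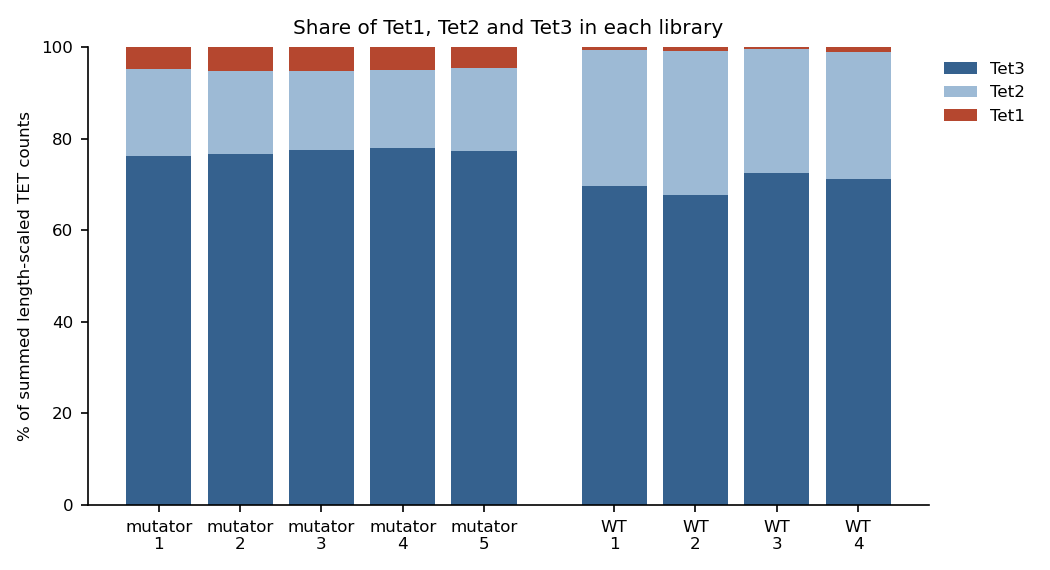
Share of Tet1, Tet2 and Tet3 in the summed length-scaled TET counts (vertical axis, percent) in each library, with the 5 mutator libraries left of the 4 WT libraries. Tet3 takes 76.2 to 77.9% in mutator and 67.8 to 72.5% in WT, and the Tet1 segment at the top is 4.58 to 5.2% in mutator and 0.421 to 0.99% in WT.

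Tdg had the largest fall of the 10. Tdg (chromosome 10, 82629814 to 82650799), the glycosylase that excises oxidised methylcytosine and thymine from mismatches with guanine, had 70.9, 74.4, 72.7, 72.7 and 69.3 CPM in mutator, against 124.0, 126.6, 122.7 and 123.8 CPM in WT. The groups were separated by a wide gap, with a log2 fold change of -0.79 ± 0.026 (edgeR adjusted p = 5.71e-15), a 1.73-fold fall. Relative to chromosome 10 it was -0.57 (edgeR adjusted p = 7.57e-13), and the 64 tested genes within 2 Mb had a median of -0.06. The last 367 bases of Tdg overlap the end of Glt8d2 on the opposite strand, and a processed copy, Tdg-ps, is annotated on chromosome 15, so that reads of these places may be missing or split. Tdg was also set against Tet3, the TET gene of highest level. The Tdg to Tet3 log2 ratio was 0.04 ± 0.057 in mutator and 1.27 ± 0.078 in WT (SD, n = 5 and 4). The lines differed in it (two-sided exact permutation p = 0.0159, 0.0181 adjusted). Raw counts of both were near equal in mutator whereas Tdg had 2.42 times the Tet3 counts in WT. Scaled for transcript length, Tdg stood above Tet3 in both lines. Its mean was 59.6 against 18.6 in mutator, and 100.6 against 13.4 in WT.

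The imprint guardians differed little. Zfp57 (chromosome 17, 37001163 to 37010729), a KRAB zinc finger protein best known from oocytes, early embryos and stem cells, was detected in every library, with 14.3, 13.3, 14.5, 13.5 and 14.4 CPM in mutator, against 13.3, 11.9, 13.5 and 12.1 CPM in WT. The groups overlapped. Its log2 fold change was 0.14 ± 0.053 (edgeR adjusted p = 0.0226). The call was lost without WT library 2 (edgeR adjusted p = 0.112) or WT library 4 (edgeR adjusted p = 0.0894). Relative to its chromosome median Zfp57 was at 0.40 (edgeR adjusted p = 1.96e-06). However, the 52 tested genes within 2 Mb had a median of 0.16 as fitted, near that of Zfp57 itself.

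Trim28 (chromosome 7, 13024152 to 13031032) had 367, 366, 363.5, 374 and 365 CPM in mutator, against 378, 359.9, 374 and 374 CPM in WT. It did not pass, with a log2 fold change of -0.02 ± 0.021 (edgeR adjusted p = 0.445). Relative to its chromosome median it passed at -0.06 (edgeR adjusted p = 0.0183), and with the GC and length trend removed it was -0.31 (edgeR adjusted p = 1.65e-10). Its transcript has the highest GC content of the 10, at 59.6%. The Zfp57 to Trim28 log2 ratio was -4.71 ± 0.067 in mutator and -4.87 ± 0.072 in WT, higher in mutator by 0.16, with the lowest mutator library just above the highest WT library (two-sided exact permutation p = 0.0159, 0.0181 adjusted).

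**Figure D3:**
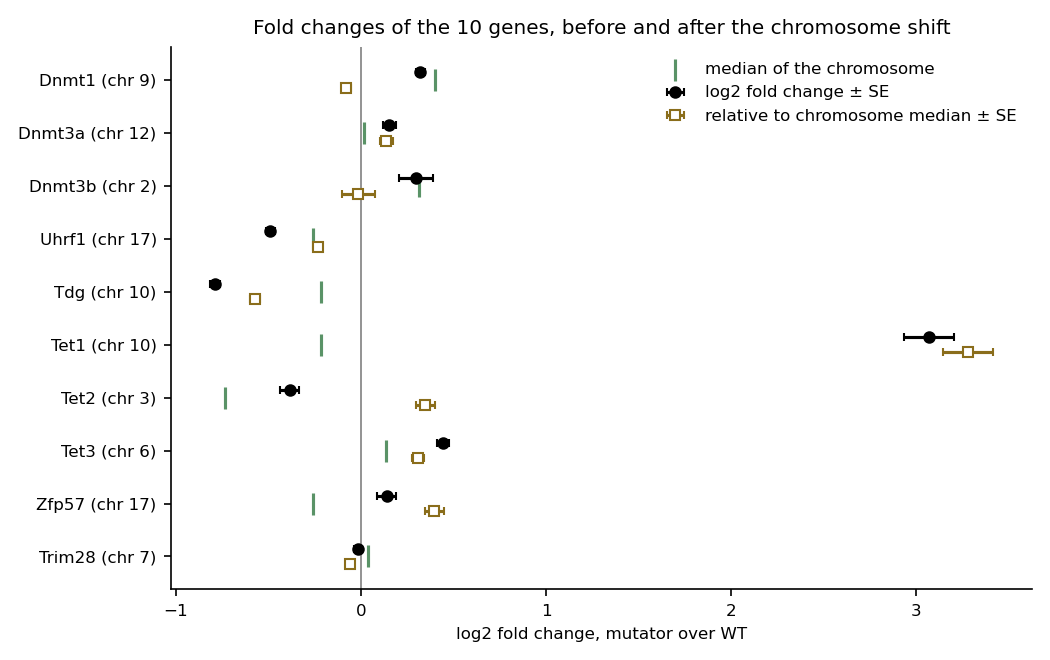
Log2 fold change of each gene, mutator over WT (horizontal axis), as fitted (filled circles) and relative to the median of its chromosome (open squares), with SE bars; green ticks are the chromosome medians. Dnmt1 (0.32 and -0.08) and Tet2 (-0.39 and 0.35) change sides of 0, and Tet1 stays above 3 on both scales.

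Per length, the order of levels was nearly the same in both lines. In mutator it ran Trim28, Dnmt1, Uhrf1, Tdg, Tet3, Zfp57, Dnmt3a, Tet2, Dnmt3b and Tet1, from 328 ± 1.82 to 1.19 ± 0.063 length-scaled CPM (SD, n = 5), and no neighbours in that order overlapped between wells. In mutator Dnmt1 (227 ± 3.07) stood above Uhrf1 (194 ± 3.68), whereas in WT Dnmt1 (178 ± 6.21) stood below Uhrf1 (267 ± 5.67). Zfp57 (13.9 ± 0.92) and Tet3 (13.4 ± 0.66) overlapped in WT, and no other neighbours did. The scaling takes the longest annotated transcript of each gene, so a gene that uses a shorter form is understated. Dnmt1 took 94.4 ± 0.13% of the summed length-scaled counts of Dnmt1, Dnmt3a and Dnmt3b in mutator and 93.8 ± 0.3% in WT.

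**Figure D4:**
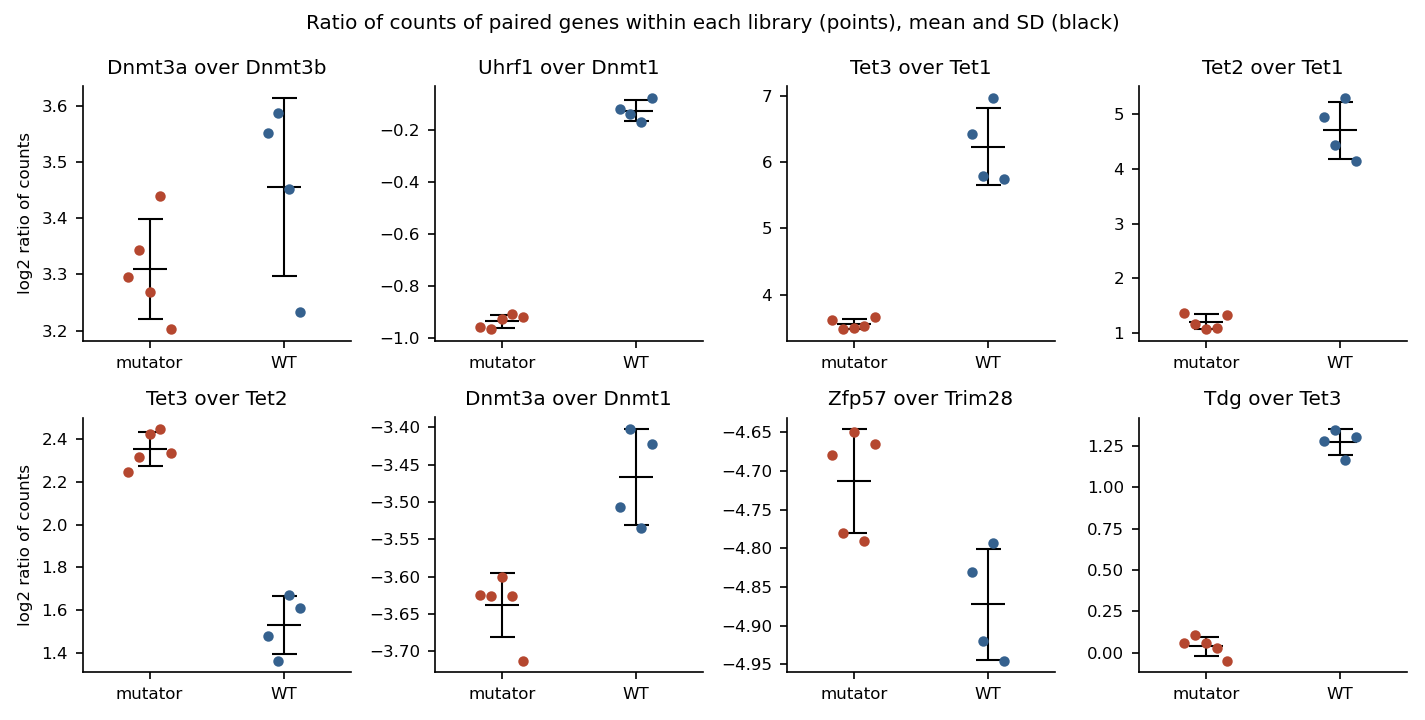
Log2 ratio of the counts of paired genes within each library (vertical axes, each with its own range) for the 5 mutator (left, red) and 4 WT libraries (right, blue), with mean and SD in black. Uhrf1 over Dnmt1 lies between -0.97 and -0.91 in mutator and between -0.17 and -0.07 in WT, and the Dnmt3a over Dnmt3b ratio is the one whose libraries overlap.

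Expression of UHRF1 and DNMT1 is tied to the cell cycle, so 37 genes of S phase and the replication fork were set beside them. Of these, 23 were lower and 11 higher in mutator, beside 39.2% lower and 40.7% higher of all genes, with a median log2 fold change of -0.15 against 0.01 for all genes. Relative to chromosome medians, 26 were lower and 6 higher (median -0.19), beside 5185 lower and 5209 higher of all 13345 genes. Their summed level was 6712 to 6891 CPM in mutator and 7428 to 7566 CPM in WT. Prim1, a primase subunit, fell 1.6-fold, Ccne2, a cyclin of S phase entry, fell 1.51-fold (log2 fold change -0.59, -0.23 relative to its chromosome median), and Pold1, a replicative polymerase subunit, rose 1.39-fold. The Pold1 call was lost with the GC and length trend removed (0.12, edgeR adjusted p = 0.0708). Mki67, a marker of cycling cells, was 642 ± 26.9 CPM in mutator and 753 ± 20.3 CPM in WT (log2 fold change -0.23), and Pcna, the sliding clamp that also binds DNMT1, was 0.15 higher on the log2 scale, or -0.16 relative to its chromosome median. As fitted, Uhrf1 was at -0.49 and Dnmt1 at 0.32 beside the list median of -0.15. Relative to chromosome medians, Uhrf1 was at -0.23 and Dnmt1 at -0.08 beside a list median of -0.19, all in the same direction. The part of cycling cells in these values was not tested.

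Among other regulators of the writers, 8 of 14 tested genes fell and 4 rose (median -0.17), with 79.9% of all genes called. Hdac1 and Hdac2, histone deacetylases that bind DNMT1, fell 1.57-fold and 1.52-fold, and Dmap1, a DNMT1-associated protein, fell 1.45-fold. Relative to chromosome medians these falls were smaller, at -0.29 for Hdac1, -0.40 for Hdac2 and -0.17 for Dmap1 on the log2 scale, and each still passed. Usp7, which stabilises UHRF1 and DNMT1, fell 1.27-fold, and Hells, a remodeller needed for methylation of repeats, fell 1.2-fold, to 189 ± 5.35 CPM in mutator against 226 ± 11.3 CPM in WT. Cdca7, which recruits HELLS, was higher (log2 fold change 0.28), but not past the threshold on the chromosome-relative scale (-0.03). Uhrf2, the paralogue of Uhrf1, rose 1.12-fold. Dnmt3l, the cofactor of de novo methylation in germ cells, had 2 counts in mutator and 1 in WT.

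For the histone methyltransferases that guide DNA methylation, 5 of 13 were higher and 5 lower (median 0.06), beside 40.7% higher and 39.2% lower of all genes. Setdb1, the H3K9 methyltransferase that TRIM28 recruits, fell 1.61-fold, to 76.5 ± 2.01 CPM in mutator against 123 ± 3.11 CPM in WT; it lies on chromosome 3 and was not past the threshold on the chromosome-relative scale (0.05, edgeR adjusted p = 0.134). Ash1l, an H3K36 methyltransferase of the same chromosome, fell 1.44-fold and was at 0.20 on the relative scale, and Ehmt1, an H3K9 methyltransferase, rose 1.51-fold (log2 fold change 0.60, 0.29 relative to its chromosome median). Around TRIM28 itself, 10 of 22 genes of KRAB zinc fingers, heterochromatin and the HUSH silencing complex were lower and 8 higher (median -0.03). These counts stand beside the same shares of all genes. Trim33, a relative of TRIM28, fell 2-fold, to 52.1 ± 1.2 CPM in mutator against 104 ± 2.81 CPM in WT (-0.27 relative to chromosome 3), Chaf1a, a chromatin assembly factor, fell 1.6-fold (log2 fold change -0.67, -0.42 relative to its chromosome median) and Morc2a, a partner of HUSH, fell 1.47-fold. Zfp445, which guards imprints together with ZFP57, was 0.37 higher on the log2 scale and -0.03 on the chromosome-relative scale (edgeR adjusted p = 0.332).

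Genes of base excision repair and other demethylation factors were split, with 10 of 21 lower and 9 higher (median -0.04). Beside them, 39.2% of all genes were lower and 40.7% higher. Mbd4, a glycosylase for mismatches at methylated sites, fell 1.74-fold, to 12.5 ± 0.58 CPM in mutator against 21.7 ± 0.79 CPM in WT. Its log2 fold change was -0.80, or -0.93 relative to its chromosome median, beside -0.79 and -0.57 for Tdg. Gadd45b, a stress-induced gene implicated in demethylation, fell 2.36-fold, and Neil1, a glycosylase of base excision repair, rose 1.81-fold (log2 fold change 0.86, 0.46 relative to its chromosome median). Cxxc5, which encodes a CXXC protein related to a regulator of TET2, had 37.5, 37.3, 38.2, 42.9 and 40.9 CPM in mutator, against 3.16, 3.54, 3.58 and 4.28 CPM in WT. That 10.9-fold rise was larger than that of Tet1, and its libraries did not overlap either.

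Of 15 tested genes for readers of methylated DNA and insulator proteins, 8 were higher and 3 lower (median 0.11). Beside them, 40.7% of all genes were higher and 39.2% lower. That list is mixed, since it also holds proteins that bind unmethylated CG. Zbtb38 and Zbtb4, zinc finger proteins that bind methylated CG, rose 1.97-fold and 1.78-fold (0.58 and 0.77 on the log2 scale relative to chromosome medians), and Kdm2b, which binds unmethylated CG, rose 1.51-fold. For the supply of S-adenosylmethionine, the methyl donor, and of 2-oxoglutarate, the co-substrate of the TETs, 11 of 20 genes were lower and 7 higher (median -0.09). These counts stand beside the same shares of all genes. D2hgdh, which clears D-2-hydroxyglutarate, an inhibitor of the TETs, rose 1.67-fold, and Ahcyl1, of the S-adenosylhomocysteine hydrolase family, fell 1.52-fold, though it was at 0.13 relative to chromosome 3.

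**Figure D5:**
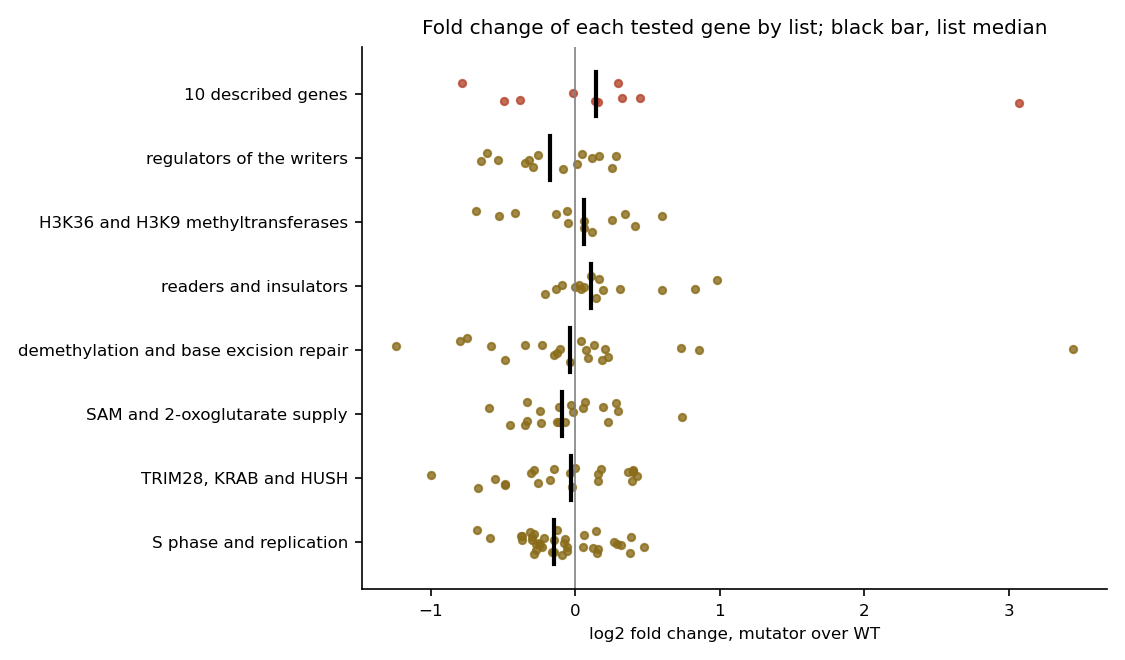
Log2 fold change, mutator over WT (horizontal axis), of each tested gene in 8 lists (rows); points are genes and black bars are list medians. Tet1 at 3.07 and Cxxc5 at 3.44 stand right of all other points, and list medians lie between -0.17 and 0.15.

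Transcripts that depend on DNA methylation were looked at last. Of 27 germline genes that promoter methylation keeps silent in somatic cells, 10 had no counts in any library and 2 passed the filter on low counts, both higher in mutator. Stag3, a meiotic cohesin subunit, had 1101 counts over the mutator libraries and 15 over the WT libraries, or 5.29 ± 0.49 CPM in mutator and 0.125 ± 0.054 CPM in WT. Brdt, a testis bromodomain gene, was 0.529 CPM in mutator and 0.269 CPM in WT (log2 fold change 0.97, edgeR adjusted p = 0.00124). Dazl had 4 counts in mutator and 0 in WT, and Ddx4 had 10 in mutator and 8 in WT, so both were near the limit of detection in both lines. Genes of this list that passed the filter did so through a line where they are detected, so the count of 2 is a description.

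Of 43 imprinted genes, 27 passed the filter. Of these, 16 were higher and 9 lower in mutator, beside 40.7% higher and 39.2% lower of all genes. Their median was 0.22, also with genes at 0 counts set to their bound. A change of at least 2-fold was present in 12 of the 27, against 17.8% of all genes. The median of their absolute log2 fold changes was 0.78, and that of all genes was 0.35. Genes detected in 1 line only are among the 12, so that count is a description. Ndn, Dlk1 and Meg3 had no counts in WT and 629, 550.0 and 478 counts in mutator, at least 124-fold, 108-fold and 93.9-fold higher against a floor of 3 counts over the WT libraries. They passed the filter through the mutator libraries alone. Among those lower in mutator, Plagl1, a zinc finger transcription factor, was 1.67 ± 0.22 CPM in mutator and 46.3 ± 2.25 CPM in WT, 27.9-fold lower, and Peg10, a retrotransposon-derived gene, was 10.4 ± 0.79 CPM in mutator and 141 ± 4.45 CPM in WT, 13.6-fold lower.

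Markers of pluripotent and germ cells, where Tet1, Dnmt3b and Zfp57 are best known, were mostly near 0: Pou5f1, Zfp42, Utf1 and Dppa4 had no counts in any library, and Nanog had 4 counts in mutator and 2 in WT. The summed level of the 18 markers was 28.0 to 31.2 CPM in mutator and 29.4 to 31.2 CPM in WT, most of it from Klf4 and Sox2, which are also expressed outside these cells. Klf4 was 24.4 ± 1.31 CPM in mutator and 12.3 ± 0.72 CPM in WT, and Sox2 was 4.21 ± 0.12 CPM in mutator and 17.3 ± 0.13 CPM in WT. Markers of epithelial, blood, endothelial, neural and muscle cells summed to 9.02 to 10.1 CPM in mutator and 6.50 to 7.57 CPM in WT. Most of that came from Tubb3, of neurons, and Cd68, of macrophages, which were 2.34-fold and 1.66-fold higher in mutator. The blood marker Ptprc had 5 counts in mutator and 1 in WT. Adgre1, also of macrophages, and the neural marker Sox10 had no counts in any library. The epithelial cadherin Cdh1 was lower, at 0.158 ± 0.074 CPM in mutator and 1.73 ± 0.046 CPM in WT (10.8-fold, edgeR adjusted p = 5.31e-11), and Epcam, also epithelial, had 13 counts in mutator and 24 in WT and was not tested. The part of any of these marker differences, fibroblast markers included, in the levels of the 10 genes was not tested.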

How the data were processed

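The deposited table holds raw counts per gene. Per the submitters' processing notes the authors aligned reads with STAR 2.4.2a and counted them with HTSeq on mm10; the sources used here give no annotation, strand setting or handling of multi-mapped reads, so overlapping genes and near-identical copies are uncertain. Per the labels' protocols, 5 wells per line were plated, and stranded poly(A) libraries were sequenced as paired ends. Columns were matched by sample description; 5 columns belonging to none of the samples were left out. No row lacked a gene name.

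Depth was 32045662 to 49511365 counts in mutator and 26341230 to 36238653 in WT. Counts were filtered (filterByExpr), TMM-scaled and tested with edgeR 4.0.16 in R 4.3.3 (quasi-likelihood, group as the only term, 9 libraries), adjusted over 13345 genes at a threshold of 0.05. The SE is the absolute log2 fold change over the square root of F. The test was checked on simulated data. CPM uses TMM-scaled library sizes. Length-scaled values use the longest GENCODE M21 transcript; positions are RefSeq GRCm38. All replicate pairs differed beyond sampling noise (2.49 to 12.4 chi-square units per degree of freedom), and each library counts once. Ratios within a library used counts plus 0.5 and an exact permutation test. Floors cover counting error only.

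Alternatives were DESeq2 1.42.0, other scalings and filters, a replicate block, chromosome medians, a GC and length correction and leaving out each library. Members and lists were chosen with earlier results of these data known. All 10 members are named; from each of 12 lists (267 of 271 entries found), the 3 largest called changes among genes averaging 1 CPM or more are named, plus 13 fixed genes; some genes that meet this rule are not reported here. Brdt, Lum, Dcn, Thy1, Pdgfra, Twist1, S100a4, Plagl1, Peg10, Cdh1, Epcam, Ptprc, Adgre1, Sox10, Pou5f1, Zfp42, Utf1, Dppa4 and Nanog were named after their values were seen.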

Additional observations from a re-analysis of the deposited data

Results flagged for a closer look

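Among 124 groups of libraries checked (the named genes and ratios in each line), 7 had a library far from the others, where chance alone flags about 1 group in 20. The Dnmt3a over Dnmt1 log2 ratio of mutator library 5 was -3.71, below the next library at -3.62. Zfp445 was 92.7 CPM in WT library 2, above the next at 85.1 CPM, and Mbd4 was 22.9 CPM in the same library, above 21.4 CPM. Gadd45b was 56.3 CPM in WT library 1, against 49.8 CPM for the next. Prim1 was 95.6 CPM in mutator library 1, above 91.9 CPM, and Meg3 was 1.96 CPM in mutator library 3, below 2.29 CPM. Dnmt3l was 0.0381 CPM in WT library 3 from 1 count, with 0 in the other WT libraries.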

How the results depend on the processing

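Relative to chromosome medians, Dnmt1 (-0.0786), Dnmt3b (-0.0133) and Tet2 (0.35) changed direction, and with the GC and length trend removed Dnmt3a did (-0.11) and 5 of the 10 genes were lower. Trim28, which was not past the threshold, was at 0.0264 under upper quartile scaling, 0.0016 with no filter and 0.0081 when 10 CPM were required in 4 libraries, which also drops Tet1 and Dnmt3b. The cause of these shifts was not tested. Tet1, Tet3, Uhrf1 and Tdg kept their direction and call under every alternative that tested them. S-phase genes higher in mutator numbered 6 relative to chromosome medians. The stricter filter, which tests fewer genes, left 8 imprinted, 0 germline and 0 other-cell-type genes higher, and 1 fibroblast and 0 other-cell-type markers lower; with no filter, 1 germline gene and 2 other-cell-type markers were lower and 3 pluripotency markers higher. Leaving out 1 library gave 1 to 2 other-cell-type markers lower and -0.22 to -0.10 for the Dnmt3a over Dnmt3b ratio (adjusted p 0.0357 to 0.286). The replicate block changed no call of the 10 genes (Dnmt1 0.32, Zfp57 0.13) and gave 6 higher and 3 lower, with 5357 higher and 5124 lower of all genes; the numbers did not pair the wells (correlation of deviations -0.17 to 0.21 over 4 pairs). WT counts of Tet1 (11 to 28 per library) limit the precision of its fold change.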
